A study of Arabidopsis thaliana with 6 samples.

Results

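The genes described here are 34 Arabidopsis genes named only by a locus code in the annotation used. Their transcript signal was lower in rosettes of the mutant pmr5 than in those of the wild type Col-0. They were chosen by their measured values in this same comparison. Each had to be the only gene paired with its probe set and to have a mean log2 signal above 6 over the 6 arrays, outside the 200 highest means. Its highest pmr5 array had to lie below its lowest Col-0 array, and the genotype means had to differ by at least 0.5 log2 units. Of 11933 probe sets named by a locus code alone, 3757 were in this level range, for 3738 genes, and 34 of them, for 34 genes, met the remaining conditions. All 34 matched a protein-coding locus in RefSeq.

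The arrays were 1-colour Affymetrix expression arrays, 3 of each genotype, hybridized with RNA from whole rosettes of plants 3 weeks old. Both genotypes have the Col-0 background, received no treatment and grew at 22 °C under a 14 h photoperiod. The labels call the replicates biological and name no allele of pmr5. They do not say whether replicates came from separate sowings, so the spread between arrays may be partly technical. In RNA from whole rosettes, fewer cells of a type and less transcript per cell cannot be told apart. No probe set was paired with PMR5 in the annotation used here, so the mutated gene itself was not analysed.

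PMR5 is known as the gene of a mutant isolated for resistance to powdery mildew, a fungus that feeds through leaf epidermal cells. Its protein belongs to a plant family whose characterized members acetylate polysaccharides of the cell wall, and the pmr5 mutant is known for an altered pectin content. Pectin is a gel-forming wall polysaccharide that is built in the Golgi apparatus and then trimmed in the wall by secreted enzymes. A locus code such as AT3G27050 gives the chromosome and the order of a gene along it and says nothing of its function. The roles given below are general knowledge of the protein families, not results, and are given for 19 of the 34 genes.

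The 3 arrays of a genotype correlated across probe sets at 0.980 to 0.991 in Col-0 and 0.985 to 0.995 in pmr5. Col-0 replicate 1 stood apart on the first principal component, with a score of -52.3 where scores of the other 5 went from -12.2 to 30.5. RNA integrity was gauged by how far the 3' control probe sets of actin, GAPDH and ubiquitin read above their 5' ones, on average over the 3 transcripts. This log2 difference was highest in pmr5 replicate 2 at 2.20, followed by Col-0 replicate 3 at 2.14, and lay between 1.97 and 2.12 elsewhere. The spiked bacterial poly-A controls read 6.59 to 6.83 in Col-0 and 6.04 to 6.52 in pmr5, without overlap. As markers of leaf tissue, the 3 measured photosynthesis genes of 14 listed had a summed linear signal of 81090 to 88050 in Col-0 and 83410 to 92360 in pmr5. Of 6 guard cell markers 2 were measured, with a sum of 1083 to 1366 in Col-0 and 1671 to 1896 in pmr5, without overlap. Nearly all of this sum was AT1G22690, at a mean log2 of 10.48 against 5.58 for FMA. AT1G22690 is also among the genes picked below as higher in pmr5 by the mirror conditions, so the sum is no measure of guard cell number. FMA, which those conditions did not pick, was also higher in pmr5, by 0.16 log2 units without overlap. Whether guard cell number differed was not tested. The 1 measured trichome marker of 4, TRY, read 88.5 to 306.2 in Col-0 and 95.2 to 449.5 in pmr5. Of 5 root markers 4 were measured, 2 of them at the lowest value of the table on all arrays, with a sum of 27.9 to 53.9 in Col-0 and 28.6 to 75.3 in pmr5. The 3 phloem, 5 flower and 4 seed genes listed had no paired probe set. The part of these differences in the values below was not tested. Values given with an array left out show the weight of that array alone. They cannot separate the poly-A controls or the guard cell sum from genotype, as neither overlapped.

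The 34 genes had differences of -4.24 to -0.50 log2 units, pmr5 minus Col-0, with a median of -0.65. The median was -0.01 over the 3757 probe sets in the level range and 0 over all 22746 tested. At least 2-fold lower were 7 genes, and the other 27 lay between that and the threshold of 0.5. Mean log2 signals of the 34 went from 6.01 to 10.75 with a median of 7.35, against a median of 7.64 in the level range. No gene was at the lowest value of the table, 2.19, on any array. Some had a pmr5 mean below 6 and so passed the level limit only through their Col-0 arrays. The lowest of these pmr5 means were 5.01 in AT5G47330 and 5.39 in AT3G44970.

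The share of the level range that met the conditions was 0.905%, and the mirror conditions, higher in pmr5, were also met by 34 probe sets, again 0.905%. Without the minimum of 0.5, 143 probe sets (3.81%) lay lower and 105 (2.79%) higher in pmr5 without overlap. Over all 8679 probe sets in the same level range, whatever their naming, 74 met the conditions lower and 74 higher, 0.853% each. Those 74 lower ones were the 34 described here, 9 of 689 with a gene symbol and 31 of 4017 with no gene in the annotation. The number of locus-named genes lower in pmr5 therefore equalled the number higher, and its share was close to that over all probe sets of this level.

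**Figure D1:**
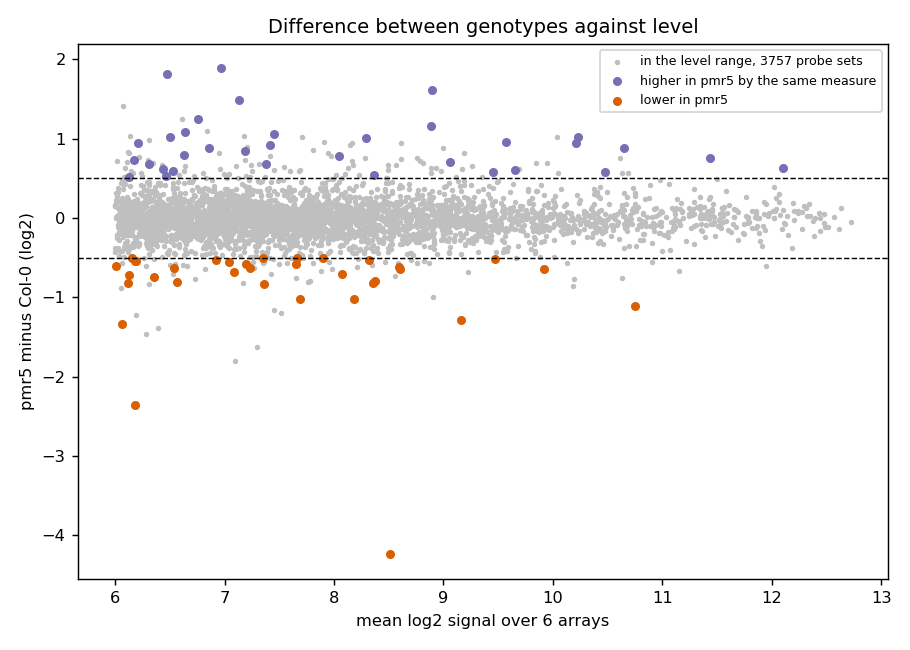
Difference of genotype means (pmr5 minus Col-0, log2) against the mean log2 signal of the 3757 locus-named probe sets with a mean above 6 and outside the 200 highest. Dashed lines mark differences of -0.5 and 0.5. The 34 genes lower in pmr5 (orange) and the 34 higher (violet) lie on either side, most of them within 1 log2 unit, and AT3G27050 lies apart at -4.24.

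In a limma model over all 22746 probe sets, 0 (0%) passed a Benjamini-Hochberg adjusted p under 0.05, and so 0 of the 34. At an unadjusted p under 0.05 there were 591 (2.6%), and 23 of the 34. As the genes were selected on this contrast, the latter count is a description and no evidence of a difference. The values below are given in the same sense, with no test.

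Values near the limits show how fine they were. Just inside the minimum difference were AT3G06035 at -0.503 and AT3G12620 at -0.507, and just outside were AT4G10000 at -0.465 and AT3G44620 at -0.451. For overlap, AT1G04430 had a gap of 0.0009 log2 units between its lowest Col-0 and highest pmr5 array and AT5G55960 one of 0.0019. AT1G71070 and AT2G04790, with equal values in the nearest arrays of the genotypes, were left outside. Another 60 probe sets in the level range differed by at least 0.5 in the same direction with overlap. A further 22 met all conditions but the level, among them AT5G08200, with a Col-0 to pmr5 gap of 0.51. None of the locus-named probe sets among the 200 highest means met the other conditions.

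**Figure D2:**
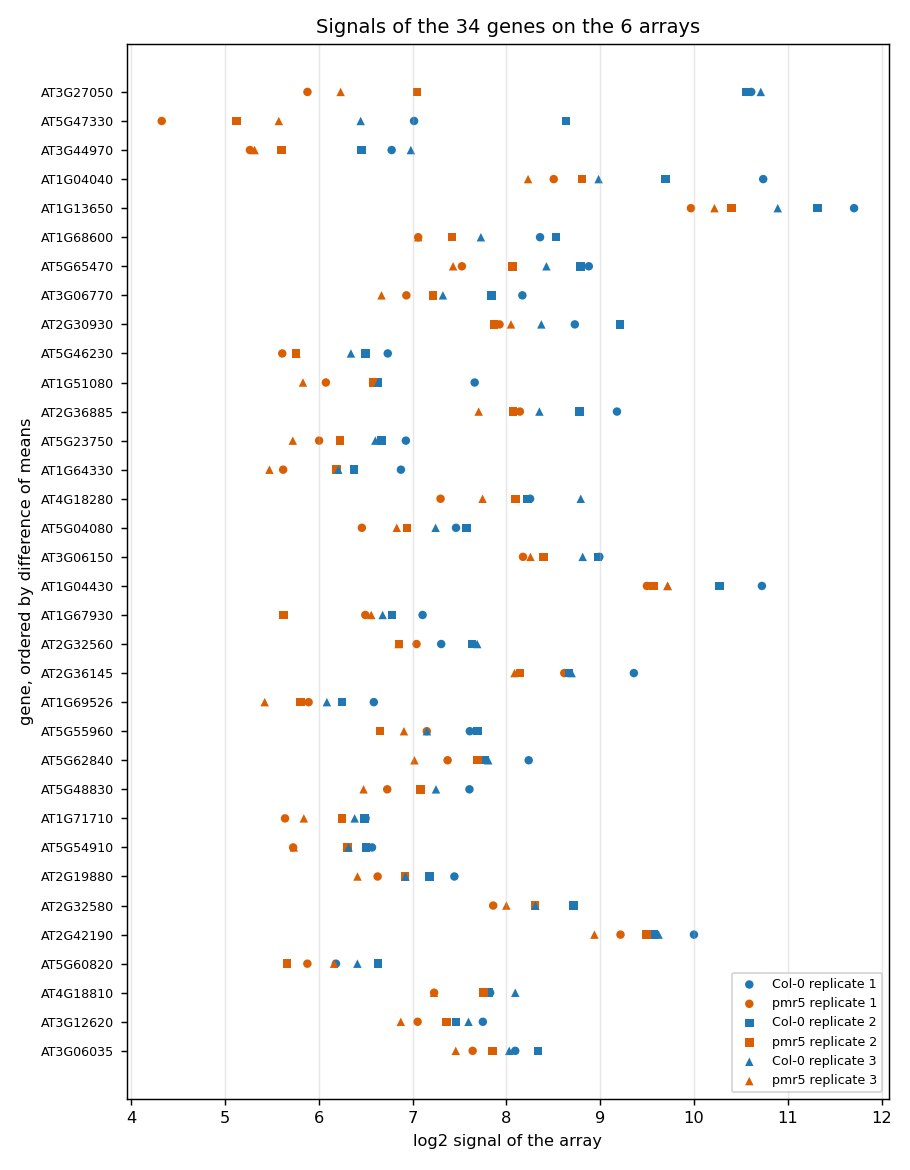
Log2 signal of each of the 34 genes on the 6 arrays, ordered by the difference of means, with Col-0 in blue and pmr5 in orange and a symbol for each replicate number. AT3G27050 has a gap of 3.51 log2 units between the genotypes, while in 13 genes the nearest arrays are less than 0.1 apart.

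AT3G27050, a gene of unknown function, differed most. It read 10.61, 10.56 and 10.71 on the Col-0 arrays and 5.88, 7.05 and 6.23 on the pmr5 arrays. Every Col-0 array was above every pmr5 array by at least 3.51 log2 units, and the means were 18.9-fold apart. The Col-0 arrays were close together (SD 0.08) and the pmr5 arrays were not (SD 0.60). Its difference was 9.92 times the pooled SD of the genotypes, the largest such ratio of the 34 genes, which went from 1.56 upward.

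Several of the genes encode proteins of the kinds that modify the cell wall, transfer sugars or serve the Golgi apparatus. Like the groups below, this one was drawn from general knowledge, and its share of the level range was not counted. AT5G65470, of the O-fucosyltransferase family, read 8.88, 8.79 and 8.43 in Col-0 and 7.53, 8.06 and 7.43 in pmr5. The genotypes were separate by 0.36 log2 units and the means 2.04-fold apart. AT3G06770 encodes a protein of the polygalacturonase type, the enzymes that cut the pectin backbone. It read 8.17, 7.84 and 7.32 in Col-0 and 6.93, 7.22 and 6.67 in pmr5, a difference of -0.84 (SE 0.28). Its lowest Col-0 array, replicate 3, was only 0.11 above its highest pmr5 array, replicate 2. AT1G04430, a putative methyltransferase related to those of pectin methylation, had a Col-0 mean of 10.24 ± 0.50 and a pmr5 mean of 9.60 ± 0.11 (SD, n = 3), and its genotypes all but touched. AT4G18280, for a glycine-rich protein, had means of 8.42 ± 0.32 and 7.71 ± 0.40 (SD, n = 3). AT1G67930, for a subunit of the Golgi transport complex, had means of 6.86 ± 0.22 and 6.23 ± 0.52 (SD, n = 3), with pmr5 replicate 2 far below the other pmr5 arrays. AT2G19880, for the glucosylceramide synthase that makes membrane sphingolipids, had means of 7.18 ± 0.26 and 6.65 ± 0.25 (SD, n = 3).

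Pectin acetylesterases remove acetyl groups from pectin, and 6 of the 12 listed had a paired probe set. None of them was among the 34 and 0 passed the adjusted threshold in limma. At an unadjusted p under 0.05 in limma there were 2, against 2.6% of all probe sets, in opposite directions. These were AT1G57590, lower in pmr5, and AT3G09405, higher by 0.41. AT3G09405 was dim, with means of 3.03 in Col-0 and 3.44 in pmr5. AT1G57590 read 6.63, 6.78 and 6.35 in Col-0 and 4.72, 5.84 and 4.27 in pmr5, a difference of -1.64 (SE 0.46) without overlap. Its mean of 5.77 kept it below the level range. AT3G05910 read 10.60, 10.03 and 9.54 in Col-0 and 9.56, 9.48 and 9.80 in pmr5, where the genotypes overlapped. Its difference of -0.44 (SE 0.31) became -0.17 without Col-0 replicate 1 and -0.70 without Col-0 replicate 3. AT5G26670 differed by -0.30 (SE 0.31) with overlap. Leaving out Col-0 replicate 1 gave 0.02, and leaving out Col-0 replicate 3 gave -0.51. AT3G09410 differed by 0.30 (SE 0.19) with overlap, and by 0.14 without pmr5 replicate 1. AT1G09550, with a mean of 2.20, was close to the lowest value of the table and could show no difference.

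Hydrolases and phosphatases made up the next group. AT5G47330 encodes an alpha/beta hydrolase of the palmitoyl-protein thioesterase type, enzymes that remove fatty acids from proteins. It read 7.02, 8.64 and 6.45 in Col-0 and 4.32, 5.12 and 5.57 in pmr5, 5.13-fold apart in the means. The genotypes were separate by 0.87 log2 units, though the Col-0 arrays alone spanned more than that. Without Col-0 replicate 2, the highest of them, the difference went from -2.36 to -1.72. All 7 listed genes of this family had a probe set, and 0 passed the adjusted threshold. Among them AT4G17480, AT4G17483, AT5G47340 and AT5G47350 had means of 2.19 to 2.43, at or near the lowest value of the table. The family's median difference of 0.01 is that of AT4G17480 and describes no expressed gene. AT3G60340 read 8.52 to 8.67 in Col-0 and 8.46 to 8.82 in pmr5. Among the others, AT4G17470 spanned 4.67 to 8.18 within pmr5, and without pmr5 replicate 3 its difference went from 0.77 to -0.01.

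AT1G04040, for an acid phosphatase of the haloacid dehalogenase superfamily, read 10.74, 9.70 and 8.98 in Col-0 and 8.50, 8.81 and 8.23 in pmr5. Its Col-0 arrays spread widely, and Col-0 replicate 3 lay 0.18 above the highest pmr5 array. The difference of -1.29 (SE 0.51) became -0.83 without Col-0 replicate 1. AT3G12620, for a protein phosphatase 2C, had a Col-0 mean of 7.60 ± 0.14 and a pmr5 mean of 7.10 ± 0.25 (SD, n = 3). AT1G71710, for an inositol polyphosphate 5-phosphatase, had means of 6.46 ± 0.06 and 5.91 ± 0.31 (SD, n = 3). AT5G62840, of the phosphoglycerate mutase family, had means of 7.94 ± 0.26 and 7.36 ± 0.34 (SD, n = 3). In these 3 genes the highest pmr5 array was replicate 2.

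AT3G44970 encodes a cytochrome P450, one of the haem enzymes that oxidize small molecules such as terpenoids and hormones. It read 6.78, 6.45 and 6.98 in Col-0 and 5.27, 5.60 and 5.31 in pmr5. The genotypes were 0.85 log2 units apart at their nearest arrays, and the difference of -1.34 (SE 0.18) was 5.89 times the pooled SD. It was the only 1 of the 4 listed P450 genes of its family with a paired probe set. AT1G69526, for a methyltransferase that uses S-adenosylmethionine, had a Col-0 mean of 6.31 ± 0.26 and a pmr5 mean of 5.71 ± 0.25 (SD, n = 3).

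Of the membrane proteins, AT1G68600 belongs to the aluminium-activated malate transporters, anion channels of plant membranes. It read 8.36, 8.53 and 7.73 in Col-0 and 7.06, 7.42 and 7.06 in pmr5, 2.04-fold apart in the means. AT5G23750, for a remorin, a plant protein of plasma membrane microdomains, read 6.93, 6.67 and 6.60 in Col-0 and 6.0028, 6.23 and 5.72 in pmr5. In both genes Col-0 replicate 3 was the lowest Col-0 array and pmr5 replicate 2 the highest pmr5 array, with 0.31 and 0.38 log2 units between them. AT3G06035, for a membrane glycoprotein held by a GPI anchor, had means of 8.15 ± 0.16 and 7.65 ± 0.20 (SD, n = 3).

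The genes for RNA and protein turnover were AT5G54910, AT2G32560 and AT5G60820. AT2G32560, for an F-box protein, a part of ubiquitin ligases that binds their targets, had a Col-0 mean of 7.54 ± 0.21 and a pmr5 mean of 6.92 ± 0.11 (SD, n = 3). A second probe set of this gene, at 3.64 to 4.46 in Col-0 and 3.49 to 3.80 in pmr5, was dim and its genotypes overlapped. AT5G54910, for a DEAD-box RNA helicase, had means of 6.46 ± 0.13 and 5.92 ± 0.33 (SD, n = 3). AT5G60820, for a RING-type ubiquitin ligase, had means of 6.41 ± 0.22 and 5.90 ± 0.25 (SD, n = 3). The nearest arrays of these last genes were 0.01 and 0.02 log2 units apart.

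Another 14 genes are named without a role. AT1G13650 read 11.71, 11.32 and 10.89 in Col-0 and 9.97, 10.40 and 10.22 in pmr5. Its genotypes were separate by 0.49 log2 units and the means 2.16-fold apart. AT2G30930 read 8.73, 9.21 and 8.37 in Col-0 and 7.93, 7.87 and 8.05 in pmr5, with the pmr5 arrays close together (SD 0.09). AT5G46230 read 6.73, 6.50 and 6.34 in Col-0 and 5.61, 5.76 and 5.76 in pmr5. AT3G06150 read 8.99, 8.97 and 8.81 in Col-0 and 8.18, 8.40 and 8.26 in pmr5. These last genes had modest differences of -0.82 and -0.65 but little spread within a genotype, so that the ratio of difference to pooled SD was 5.35 and 6.21. Over the 34 genes this ratio was at least 3 in 10.

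Differences of the remaining genes without a role were smaller than 1 log2 unit. AT1G51080 was at -0.81, AT2G36885 at -0.80, AT1G64330 at -0.72, AT5G04080 at -0.68 and AT2G36145 at -0.62. AT5G55960 was at -0.58, AT5G48830 at -0.55, AT2G32580 at -0.53, AT2G42190 at -0.51 and AT4G18810 at -0.51. Only AT2G36885 and AT5G04080 among these 10 had more than 0.2 log2 units between the nearest arrays of the genotypes, at 0.21 and 0.31.

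The 34 genes lay on all 5 chromosomes, with 9, 7, 6, 2 and 10 on chromosomes 1 to 5 against 960, 554, 771, 540 and 932 probe sets in the level range. AT2G32560 and AT2G32580 were the only members next to each other in the order of protein-coding genes, and the next nearest, AT3G06035 and AT3G06150, had 13 genes between them. Of the 68 places next to a member, 11 held a gene measured in the level range, and 6 of these were lower in pmr5. Among the 6 were AT2G32560 and AT2G32580, counted as each other's neighbour and lower by their selection. In the whole level range 1957 of 3757 were lower.

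Within each genotype the 34 genes tended to an order of the arrays that their selection did not ask for. Col-0 replicate 1 was the highest Col-0 array in 22 of them (64.7%, against 48.4% of the level range), and Col-0 replicate 3 was the lowest in 22 (64.7% against 43.1%). In pmr5, replicate 2 was the highest in 23 (67.6% against 41.9%). Col-0 replicate 1 and pmr5 replicate 2 were both the highest of their genotype in 16 genes (47.1% against 22.4%). The median deviation from the genotype mean was 0.17, 0.003 and -0.18 log2 units on Col-0 replicates 1, 2 and 3, and -0.07, 0.24 and -0.17 on those of pmr5. For the 34 probe sets higher in pmr5 it was -0.14, 0.07 and 0.12 in Col-0 and -0.02, -0.06 and 0.12 in pmr5. Its sign there was the opposite on Col-0 replicates 1 and 3 and pmr5 replicates 2 and 3, and the same on Col-0 replicate 2 and pmr5 replicate 1. On pmr5 replicate 2 it was smaller in size, at -0.06 against 0.24. The higher set thus showed the pattern in part, with the sign turned. In 14 genes Col-0 replicate 3 was the lowest of its genotype and pmr5 replicate 2 the highest, so that these arrays set the gap (41.2% against 16.1%). They are also the arrays where the 3' control signals stood highest over the 5' ones, and the part of this was not tested. The median pooled SD of the 34 genes was 0.28, against 0.24 in the level range.

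**Figure D3:**
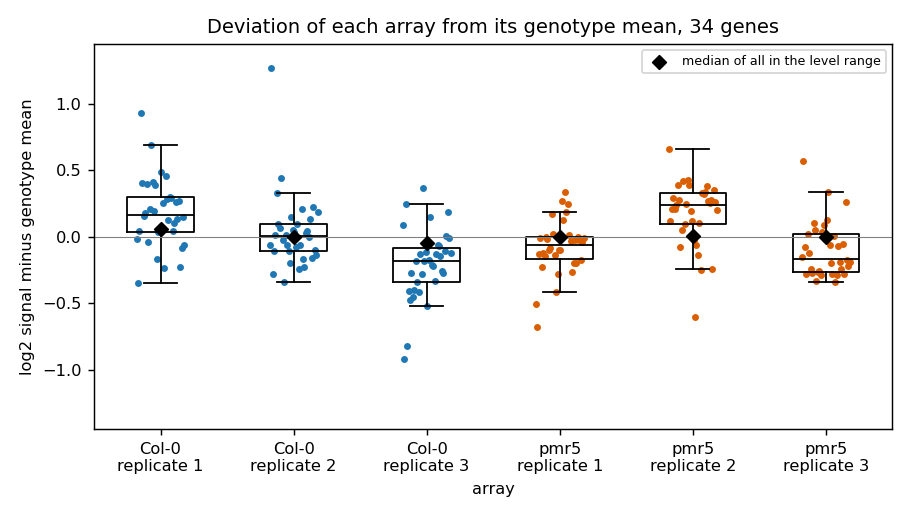
Log2 signal of each of the 34 genes on an array minus the mean of its genotype (points, with boxes for the median and quartiles and whiskers to the last point within 1.5 box lengths), and the median of the 3757 probe sets in the level range (black diamonds). The 34 genes lie high on Col-0 replicate 1 and pmr5 replicate 2 and low on Col-0 replicate 3 and pmr5 replicate 3.

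When 1 array was left out and the level range kept, the number that met the conditions was lowest at 35, without pmr5 replicate 3, and highest at 248, without pmr5 replicate 2, where 194 met the mirror conditions. Without Col-0 replicate 3 it was 105, and 105 in the mirror direction. Fewer arrays make a lack of overlap easier to reach. Leaving out pmr5 replicate 2 kept 31 of the 34 genes and leaving out Col-0 replicate 3 kept 33. Only 24 were kept when pmr5 replicate 3 was left out and 23 when Col-0 replicate 1 was. That all 34 stayed lower in pmr5 whichever array was left out follows from the lack of overlap by which they were chosen. Of them, 17 stayed at least 0.5 lower. The difference moved by over 1.5 times in 5 genes. These were AT1G04040, AT1G04430 at -0.40, AT1G51080 at -0.47 and AT2G36145 at -0.40, all without Col-0 replicate 1, and AT1G67930 at -0.33 without pmr5 replicate 2. AT3G27050 stayed between -4.57 and -3.99 and AT3G44970 between -1.49 and -1.22.

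**Figure D4:**
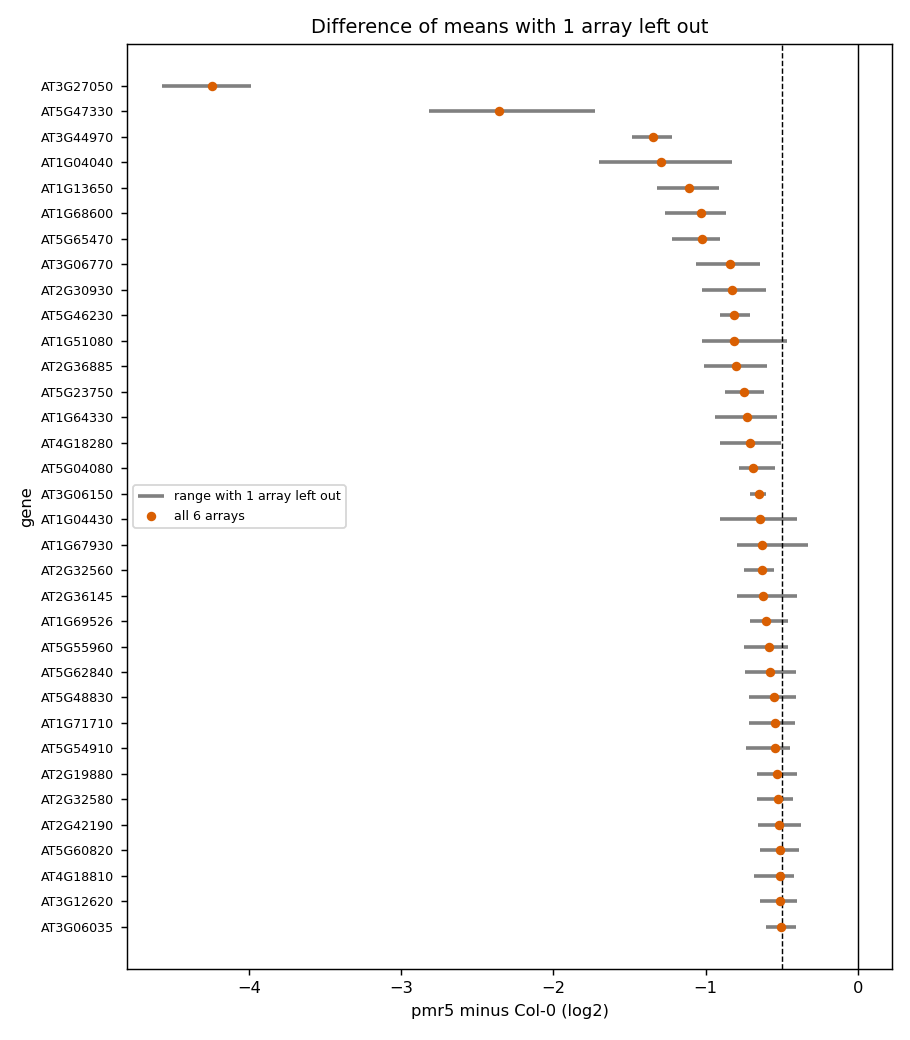
Difference of genotype means (pmr5 minus Col-0, log2) of the 34 genes over all 6 arrays (orange points) and its range when each array in turn was left out (grey bars), with a dashed line at -0.5. All bars lie below 0, which the lack of overlap asked of the genes makes certain, and 17 lie wholly at or below -0.5.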

How the data were processed

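The deposited table holds log2 signals per probe set for 6 arrays, which the authors computed by RMA (affy package, version not stated), per the submitters' processing notes. Of its 22810 probe sets, 64 were Affymetrix controls. Gene names came from the platform annotation, which paired 13513 with 1 gene, 503 with several and 8730 with none, and from RefSeq genes of TAIR10.1, used for names and gene order. These held no gene descriptions, so the planned grouping by description and the promoter motifs were not run. Differences are pmr5 minus Col-0. Tests ran in R 4.3.3 with limma 3.58.1 (lmFit, eBayes) without further normalization, with Benjamini-Hochberg adjustment over all 22746 non-control probe sets and a threshold of 0.05. Standard errors are limma's moderated ones. The steps were tested on simulated data. The number of arrays limits the precision. The members, gene lists and tests were chosen with earlier results of these data known. All members are named, and values on every array are given for the 10 largest differences, the 10 widest gaps and members of the gene lists. Alternatives were other array scalings, variance models, thresholds, a filter on dim probe sets, the replicate number as a block and leaving out each array.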

Additional observations from a re-analysis of the deposited data

How the results depend on the processing

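With 1 array left out, the number of probe sets past an adjusted p of 0.05 in limma went from 0 to 13, highest without pmr5 replicate 2, and the number meeting the conditions from 35 to 248. The median difference of the 34 genes stayed between -0.74 and -0.57. With only probe sets of mean log2 above 6 tested, 1 passed, AT3G27050 at an adjusted p in limma of 0.0393. Over all probe sets its adjusted p in limma was 0.68. AT3G27050 also passed without pmr5 replicate 2, at 0.0381, within 0.0381 to 1 over its 12 alternatives, and the cause was not tested. As the gene was chosen on this contrast, these values are a description. The conditions were met by 22 genes at a minimum mean of 7 and by 7 at a minimum difference of 1, since both limits are stricter. They were met by 46 at a minimum mean of 5, 48 at a minimum difference of 0.4, 43 with genes of a symbol counted too, 35 after quantile normalization and 38 with arrays centred on their medians. Under each of the latter scalings 33 of the 34 genes were kept, and AT5G55960 was not. All 34 were lower in pmr5 in every alternative run. With an array left out or with arrays weighted, this follows from the lack of overlap. The replicate block, a variance trend with signal and the filter on dim probe sets leave the differences of means unchanged. Only quantile normalization and centring on array medians could have turned a gene. Among the other family genes named, leaving out 1 array took AT5G26670 from -0.506 to 0.0201 (turned by leaving out Col-0 replicate 1). It took AT4G17470 from -0.0149 to 1.74 and AT3G60340 from -0.0178 to 0.162, both turned by leaving out pmr5 replicate 3. With the replicate block, 0 probe sets passed, as without it. The median stayed at -0.65, which the balanced design makes certain. Deviations of same-numbered arrays from their genotype means correlated at 0.12, -0.28 and 0.19 for replicates 1, 2 and 3, so the numbers were not taken as pairs.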
